A study of Homo sapiens with 8 samples.

Results

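The negative control cultures are 4 dishes of 143BTK- cells that received a control mimic, and they make up 4 of the 8 libraries of the study. They were taken by their label alone, with no use of measured values. 143BTK- is a human osteosarcoma line, selected for loss of thymidine kinase activity. The medium of all 8 dishes had no glucose and held galactose (10 mM), dialysed serum (5%), uridine (50 µg/mL) and a stable glutamine source. Each dish was given 80 pmol of a synthetic microRNA mimic with a lipid reagent, was given it once more 48 h later, and was lysed for RNA at 120 h. The control group received mirVana Negative Control #1, and the other 4 dishes received hsa-miR-101-3p. The labels describe 4 separate transfection experiments, and cultures are numbered 1 to 4 here as the labels number them. No culture in glucose and no untransfected culture was analysed here, so the levels below describe 1 line, in galactose, after 2 transfections.

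Cells that are given galactose convert it to glucose phosphates through the Leloir pathway. This route is slow, glycolysis then yields little ATP, and the cells depend on oxidative phosphorylation by the respiratory chain. The chain has complexes I to IV and the ATP synthase, called complex V. Most subunits are encoded in the nucleus, while 13 are translated from mitochondrial DNA (mtDNA), and complex II is the only complex with no mtDNA-encoded subunit. Uridine in such medium spares the cells a step of pyrimidine synthesis that is tied to the respiratory chain.

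The control libraries held 17603054 to 19644320 counts each, over 15982 gene symbols. Levels are given in CPM, the counts of a gene relative to its library's total after scaling by TMM factors, which adjust the totals for the weight of a few abundant RNAs. The factors moved all genes of culture 3 by 0.13 on the log2 scale against plain library totals, and those of the other control cultures by less than 0.1. Values are mean ± SD with n = 4 cultures. CPM orders genes by their reads, which grow with transcript length, so levels of different genes are also given as CPM per kilobase of annotated exon, with a percentile among 12513 protein-coding genes. The 4 cultures were not equally far apart. Over all genes, the common biological coefficient of variation (BCV, edgeR's estimate of the spread beyond counting error) was 0.206 for the 4 cultures. It was 0.0585 for cultures 1 and 2 alone and 0.178 to 0.264 for the other 5 pairs. Cultures 1 and 2 still differed beyond counting noise, with a median chi-square per gene of 1.25, where counting alone gives 0.455. This used library totals without TMM factors, and it cannot tell 2 cultures from 2 libraries of 1 culture. They were kept as 2 samples by their labels. Whether they came from separate cultures is stated only by the labels.

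Genes at 1 CPM or more numbered 14137 to 14277 per culture, and 13484 reached that level in all 4, of which 11400 were annotated as protein-coding. At 10 CPM or more in all 4 cultures there were 8627 genes, at 100 CPM 1731, and at 1000 CPM 39.

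The most abundant RNAs were structural non-coding RNAs rather than mRNAs. RN7SL1 and RN7SL2, copies of the 7SL RNA that forms the core of the signal recognition particle, ranked 1 and 2. They were followed by RPPH1, the RNA of ribonuclease P, by RN7SK, which holds back the elongation factor P-TEFb, and by RMRP, the RNA of ribonuclease MRP. These 5 genes took 13.7 ± 2.01% of all counts, and the 10 most abundant genes took 16.1 ± 2.16%. RN7SL1 and RN7SL2 are close to identical, so the division of counts between them is uncertain.

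RN7SL1 was at 44475, 43116, 58465 and 40386 CPM in cultures 1 to 4. RPPH1 was at 18891, 16812, 29423 and 16938 CPM, and RN7SK at 19247, 16874, 27078 and 13534 CPM. Culture 3 was highest for all of these. The same order held more widely. Of the 27 structural RNAs of the list with counts, 21 had a mean of 10 CPM or more. All 21 were highest in culture 3, and 19 of them were lowest in culture 4. Of all 9315 genes at that level, 3332 were highest in culture 3 and 3372 lowest in culture 4. In all, the list took 14.1, 13.7, 18.0 and 12.6% of the counts of cultures 1 to 4, and protein-coding genes took 78.4 ± 2.52%. SNORD3A, the U3 small nucleolar RNA of ribosomal RNA processing, ranged most among the 10 most abundant genes, from 3353 CPM in culture 4 to 10964 CPM in culture 3.

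**Figure D1:**
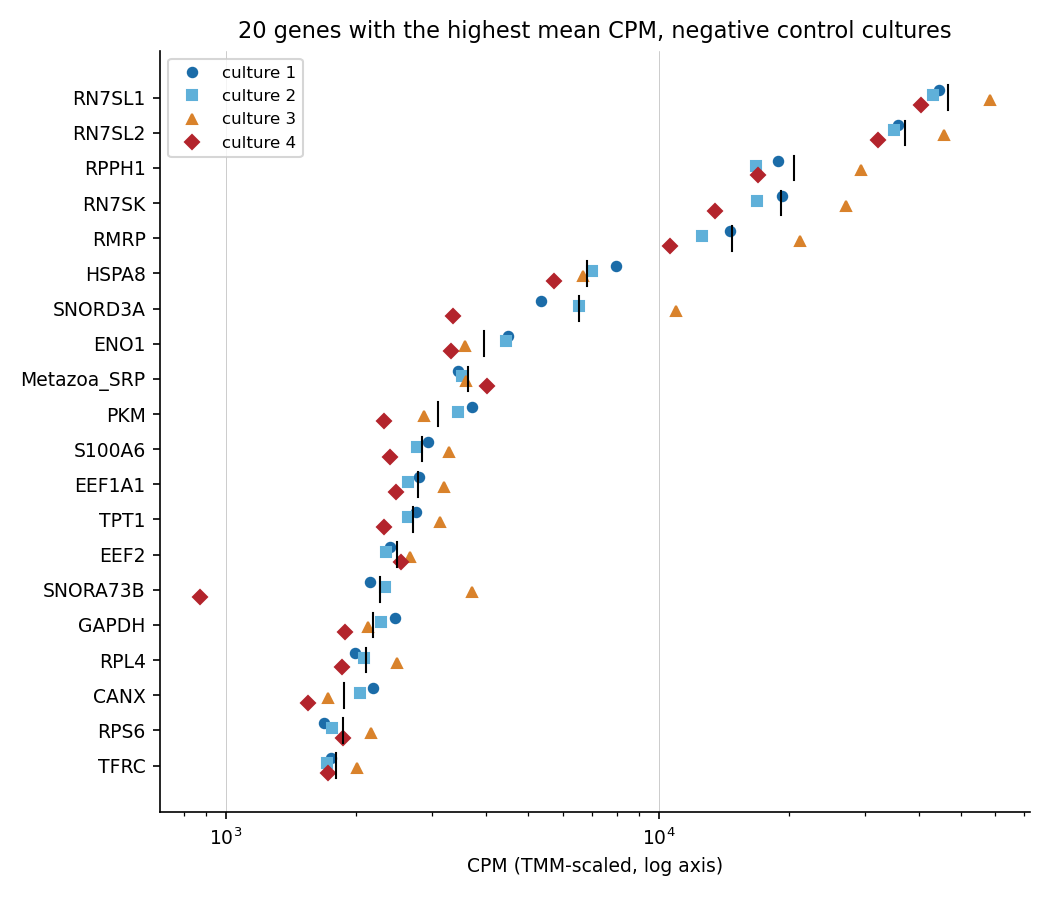
CPM (log axis) of the 20 genes with the highest mean in each of the 4 negative control cultures, with a black bar at the mean. The 5 most abundant are non-coding RNAs, and culture 3 is highest for most of the non-coding RNAs, while HSPA8 leads the mRNAs.

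Of mRNAs, HSPA8, the constitutive heat shock chaperone of the cytosol, had the highest CPM, at 7963, 7007, 6674 and 5742 in cultures 1 to 4. ENO1, the main enolase of glycolysis, followed at 3946 ± 598 CPM, and PKM, pyruvate kinase, at 3085 ± 617 CPM. Also among the 20 highest by CPM were the translation factors EEF1A1 (2773 ± 312) and EEF2 (2487 ± 147), the calcium-binding protein S100A6 (2839.7 ± 365), TPT1 (2704 ± 328), the ribosomal protein genes RPL4 and RPS6, the chaperone CANX of the endoplasmic reticulum, GAPDH and TFRC, the transferrin receptor of iron uptake. The 10 highest protein-coding genes together took 3.09 ± 0.273% of counts.

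Per kilobase the order of mRNAs changed. S100A6 led with 2925 ± 376 CPM per kilobase, then came HSPA8 (1412 ± 189), TMSB10, a binder of actin monomers (1302 ± 137), and MT-CO3, subunit 3 of cytochrome c oxidase, from mtDNA (1139 ± 321). This group of 20 held 6 replication-dependent histone genes (HIST2H2AC, HIST1H3B, HIST1H1C, HIST1H4D, HIST1H1E and HIST1H1B), 4 ribosomal protein genes, RPS6, RPS21 and RPL19 among them, the iron storage gene FTL and the 3 cytochrome oxidase genes of mtDNA. Replication-dependent histone mRNAs lack a poly(A) tail and are made in S phase, and the libraries were prepared by removal of ribosomal RNA. The histone genes with a HIST symbol took 0.558, 0.584, 0.588 and 0.897% of counts, highest in culture 4. Levels of single histone genes are uncertain because the family holds near-identical copies.

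Counts also fell on pseudogenes. Annotated pseudogenes (1064 symbols) took 3.43 ± 0.0809% of counts, close to the 3.87 ± 0.249% of 81 cytosolic ribosomal protein genes. Among symbols formed from a gene's name plus P and a number, 69 were at 100 CPM or more, and 26 of them were above the parent gene. EEF1A1P5 held 37.7, 37.0, 37.5 and 37.4% of the counts of the pair with EEF1A1. The share of a pair that fell on the copy varied little between cultures, with a median SD of 0.668 percentage points and a highest one of 4.38, for RPL13AP5. For some parents the table holds little of the signal. RPL7 was at 33.2 ± 9.33 CPM and its copy RPL7P9 at 752 ± 272 CPM, EIF4A1 at 23.5 ± 1.29 CPM and EIF4A1P10 at 379 ± 49.6 CPM, and the complex I gene NDUFV2 at 13.8 ± 2.46 CPM with NDUFV2P1 at 144 CPM. How reads that match both were assigned is not given in the sources used here, so the level of each of these parents is uncertain, GAPDH and TPI1 among them (copies GAPDHP1 at 393 ± 44.2 and TPI1P1 at 293 ± 37.9 CPM).

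Several mesenchymal genes were among the highest of the lineage lists, while the mesenchymal list as a whole had a median percentile of 63.1. Of 25 mesenchymal genes, 21 had a row in the table and 17 were at 1 CPM or more in all 4 cultures. VIM, the intermediate filament of mesenchymal cells, was at 597, 526, 899.5 and 651 CPM, and the hyaluronan receptor CD44 at 627, 596, 765 and 722 CPM. NT5E, which encodes CD73, was at 412 ± 59.7 CPM and the cadherin CDH2 at 140 ± 4.60 CPM. VIM (130 ± 31.5 CPM per kilobase), the collagen VI chains COL6A2 (126 ± 44.0) and COL6A1 (72.8 ± 23.7), NT5E (91.0 ± 13.2) and CD44 (67.7 ± 7.93) had percentiles of 96.6 to 98.6. Transcription factors of the mesenchymal state were lower per kilobase: TWIST1 was at 11.9 ± 1.40, SNAI2 at 7.87 ± 1.49 and ZEB1 at 7.18 ± 0.818. Smooth muscle actin ACTA2 (0.791 ± 0.208 CPM) and LUM (0.0815 ± 0.0894 CPM) were at the floor of the table.

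Of 19 osteoblast genes, 10 had a row and the others, the osteoblast transcription factor SP7, ALPL, BGLAP and IBSP among them, were not analysed here. RUNX2, the transcription factor that commits cells to the osteoblast fate, was at 13.3, 12.2, 18.8 and 9.22 CPM. COL1A1, the main collagen of bone, was at only 6.29 ± 2.83 CPM. The list's median percentile was 36.0 per kilobase, below the 50 of all protein-coding genes, and its median coefficient of variation (CV) between cultures was 40.4%, against 14.5% for all genes at 10 CPM or more. Exceptions were SPARC, the matrix protein osteonectin, at percentile 98.3, TNFRSF11B, which encodes the decoy receptor osteoprotegerin, and SPP1, osteopontin. SPARC was at 841 and 796 CPM in cultures 1 and 2 and at 324 and 295 CPM in cultures 3 and 4. The summed CPM of the list followed SPARC, with 1018, 933, 449 and 365 in cultures 1 to 4.

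Lists of other cell types had few genes with a row, at levels from the floor of the table to above 100 CPM. Of 14 epithelial genes, 4 had a row: KRT18 (274 ± 31.0 CPM), KRT8 (61.4 ± 12.4 CPM), EPCAM (7.75 ± 2.45 CPM) and ESRP1 (0.622 ± 0.157 CPM), while the epithelial cadherin CDH1 and KRT19 were not analysed here. KRT8 and KRT18 overlap in the annotation, on chromosome 12. The sources do not give how reads in the shared exons were assigned, so both levels are uncertain. Immune, endothelial, neural and osteoclast lists had 2 genes each with a row, all at means of 5.34 CPM or less, the highest being TNFRSF11A, the receptor RANK. None of 6 skeletal muscle genes had a row. Of cartilage genes, the transcription factor SOX9 was at 62.6, 51.5, 98.1 and 28.4 CPM, and ACAN, MATN3 and COMP were below 2 CPM. Of 6 fat cell genes, 4 had a row, at a median percentile of 66.3 with an SD of 10.7 between cultures. The mesenchymal list's 63.1 lies within that spread, and genes without a row enter neither median. PPARG, the nuclear receptor of fat cell differentiation, was at 129, 127, 109 and 53.3 CPM, and FABP4, a fatty acid carrier, at 23.7, 19.1, 47.8 and 7.46 CPM. In both genes culture 4 was lowest.

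Levels of genes tied to the line were also read. With no other line to compare, they do not verify the label. TK1, the cytosolic thymidine kinase whose activity the line lacks, had an mRNA level of 18.1, 16.9, 17.8 and 12.9 CPM, so transcripts of the gene were counted in every culture. CCND1, cyclin D1, was at 425 ± 116 CPM, CDK4 at 166 ± 18.8, MDM2 at 145 ± 32.3, RB1 at 114 ± 13.9, and ATRX at 358 ± 72.0 CPM. MYC (4.46 ± 1.37 CPM) and the telomerase subunit TERT (2.49 ± 0.851 CPM) were low in all 4 cultures. CDKN2A, CDKN2B and MTAP, neighbours on chromosome 9, were not analysed here.

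All 21 cell cycle genes of the list were above 10 CPM on average, with a median percentile of 95.8. TOP2A, the topoisomerase that separates sister chromatids, was at 1128, 1129, 1194 and 1340.3 CPM. PCNA, the sliding clamp of DNA replication, was at 288 ± 33.9 CPM and CDK1 at 328 ± 62.6 CPM. MKI67, the Ki-67 marker of cycling cells, was at 61.9, 82.0, 106 and 126 CPM, and the mitotic kinase AURKB at 41.7, 38.4, 47.2 and 76.1 CPM. Culture 4 was highest for TOP2A, MKI67 and AURKB. Of the 21 genes, 9 were highest in culture 4 and 8 in culture 3. Of all 9315 genes at 10 CPM or more, 3208 were highest in culture 4 and 3332 in culture 3. The list's summed CPM varied little, from 4862 to 5224.

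Of the hexose transporter mRNAs, SLC2A1, the basal glucose transporter GLUT1, was highest per kilobase, with SLC2A3 (GLUT3) next. SLC2A1 was at 182, 191, 202 and 200 CPM, with a CV of 4.81%. SLC2A3 was at 156, 137, 85.3 and 46.3 CPM, so the highest was 3.38 times the lowest. Per kilobase these stood at 41.1 ± 1.97 and 17.3 ± 8.13 CPM, SLC2A6 at 9.95 ± 3.06, SLC2A13, a carrier of myo-inositol, at 5.29 ± 1.23, and SLC2A10, SLC2A8 and SLC2A12 at 2.49 or less. The other 8 transporters of the list, among them SLC2A2 and the sodium-coupled SLC5A1, were not analysed here.

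Every one of the 8 Leloir genes was expressed at 1 CPM or more in all 4 cultures, at a median percentile of 69.8, well below glycolysis. GALM turns the sugar into the form that is phosphorylated and was at 19.1 ± 2.49 CPM. GALK1, the galactokinase, was at 22.9, 22.6, 19.1 and 22.4 CPM, and GALK2, which mainly acts on N-acetylgalactosamine, at 69.8 ± 10.3 CPM. GALT, the uridylyltransferase that exchanges galactose 1-phosphate for glucose 1-phosphate, was the lowest of the pathway, at 9.94, 9.66, 6.14 and 6.93 CPM, or 1.85 ± 0.435 CPM per kilobase (percentile 31.2). Its exons overlap those of IL11RA, so part of these reads may belong to that gene. UGP2, which makes UDP-glucose, was at 101 ± 16.0 CPM. PGM1, the phosphoglucomutase that leads to glycolysis, was at 137, 127 and 113 CPM in cultures 1 to 3 and at 64.9 CPM in culture 4. Per kilobase PGM1 (26.2 ± 7.58) and PGM2 (24.8 ± 3.08) did not differ beyond their spread, and PGM2 was the higher in cultures 3 and 4. Apart from PGM1 the members had CVs of 23.5% or less.

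Glycolytic enzymes stood far higher, with a median percentile of 90.0 for the 20 of 27 genes that had a row. GAPDH was at 2453, 2278, 2125 and 1889 CPM, PGK1, the phosphoglycerate kinase, at 1314, 1183, 1345 and 663 CPM, and TPI1, triosephosphate isomerase, at 541 ± 60.7 CPM. Per kilobase ENO1 (748 ± 113) and GAPDH (733 ± 80.2) were highest and did not differ beyond their spread, with GAPDH the higher in cultures 3 and 4. They were followed by PKM (360 ± 72.0), LDHB (307 ± 29.3), LDHA (219 ± 89.2), PGK1 (204 ± 57.4) and TPI1 (200 ± 22.5). For most steps 1 isoform prevailed. ALDOA stood at 106 ± 22.7 CPM per kilobase against 8.43 ± 3.17 for ALDOC, and ENO1 at 748 against 8.20 ± 1.99 for ENO2 and 0.880 ± 0.149 for ENO3. PFKP, the platelet form of phosphofructokinase, was at 33.5 ± 0.516, above PFKL (11.9 ± 2.73) and PFKM (10.6 ± 0.674). Hexokinases HK1 and HK2 were at 27.4 ± 6.94 and 25.5 ± 5.23 and did not differ beyond their spread. With the longest transcript as the length in place of all merged exons, PFKM (21.6 ± 1.38) stood above PFKL (17.6 ± 4.06), so the order of those 2 is not settled.

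The lactate dehydrogenase subunits differed in how they varied. LDHA, the muscle-type subunit, was at 1674, 1232, 1889.7 and 635 CPM, and LDHB, the heart-type subunit, at 866, 865, 1047 and 890.1 CPM. LDHA thus had a CV of 40.8% and LDHB of 9.53%. Per kilobase LDHB was above LDHA in each culture, at 290 against 269, 290 against 198, 351 against 304 and 298 against 102, but with the longest transcript as length the means were 596 ± 56.8 and 562 ± 229, within the spread. Of 18 glycolytic genes at 10 CPM or more, 14 were lowest in culture 4, against 3372 of all 9315 genes at that level. The summed CPM of the list was 16575, 15378, 14641 and 11249 in cultures 1 to 4. Exit of lactate had SLC16A1, the transporter MCT1, at 192 ± 24.2 CPM (36.1 ± 4.56 per kilobase) with its chaperone BSG at 169.9 ± 19.8 CPM. EMB, the other chaperone of the family, was at 112, 105, 179 and 109 CPM. SLC16A3 (MCT4), at 24.4 ± 5.43 CPM, and SLC16A7 (MCT2), at 38.4 ± 7.62 CPM, were near each other per kilobase, at 2.71 ± 0.604 and 2.81 ± 0.558.

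**Figure D2:**
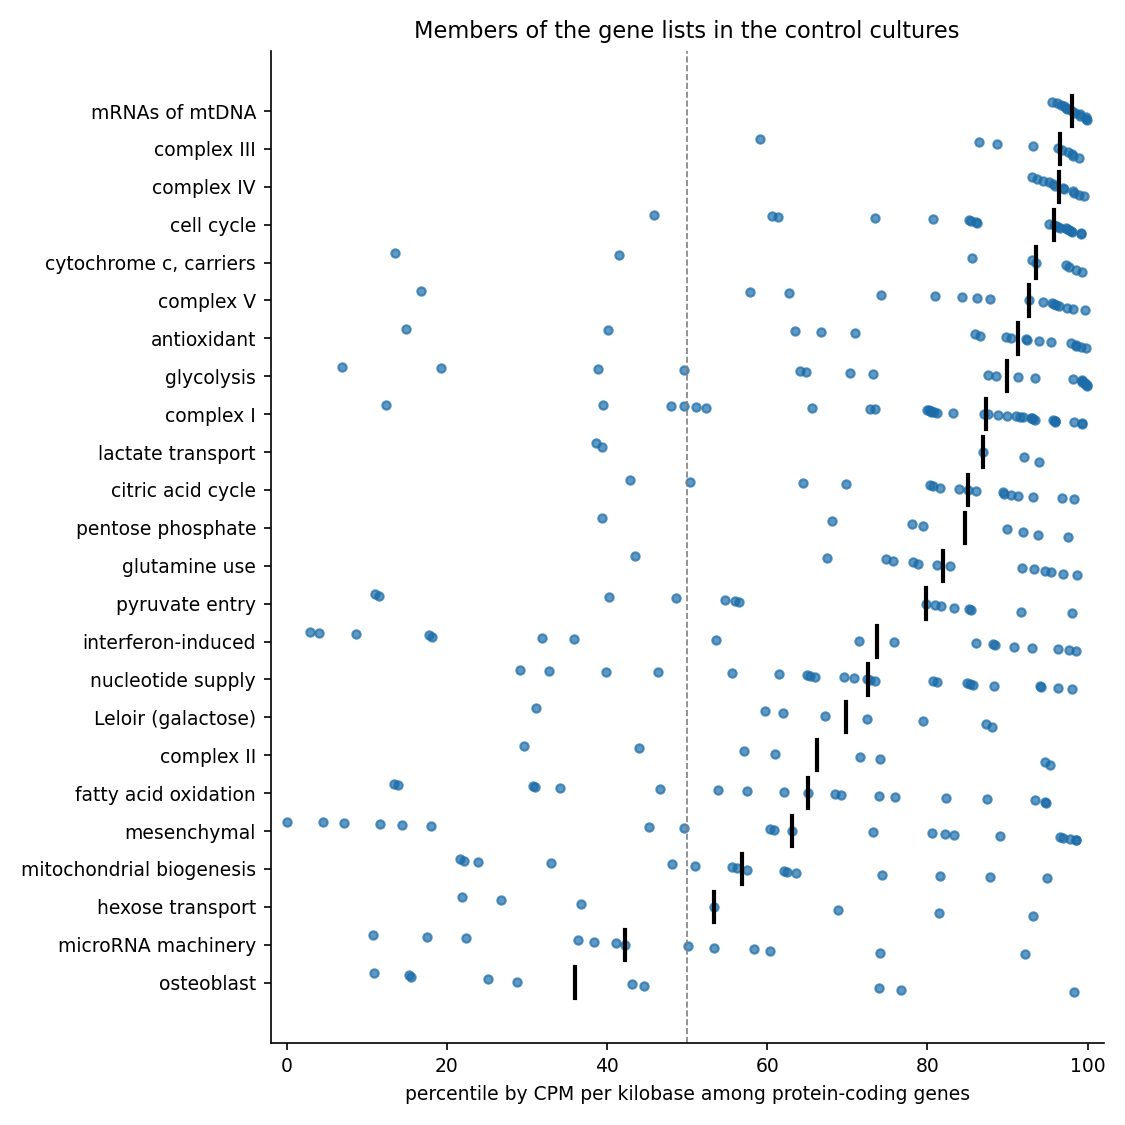
Percentile of each list member by mean CPM per kilobase among protein-coding genes in the 4 negative control cultures (points), with the list's median as a black bar and a dashed line at 50. The mRNAs of mtDNA and complexes III and IV have medians of 98.0, 96.6 and 96.5, and of the lists shown the osteoblast list has the lowest median, 36.0.

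The branches off glycolysis had levels between those groups. In the pentose phosphate pathway, median percentile 84.7, PGD was at 256 ± 55.6 CPM and TKT, transketolase, at 422 ± 15.2 CPM. Of the pyruvate dehydrogenase system, DLAT, PDHB and PDHA1 were at 169 ± 14.2, 101 ± 8.51 and 71.2 ± 12.4 CPM. PDP1, the phosphatase that switches the complex on, was at 683, 630.2, 529.7 and 476 CPM, or 103 ± 16.8 per kilobase. PDK1, the highest of the kinases that switch it off, was at 5.88 ± 1.71 per kilobase, PDK3 at 4.32 ± 1.53, PDK2 at 0.443 ± 0.0600 and PDK4 at 0.421 ± 0.196. PDP2, the other phosphatase, was at 5.60 ± 1.24 per kilobase. PDP1 thus exceeded each kinase mRNA in all 4 cultures, while PDP2 and PDK1 did not differ beyond their spread. The mitochondrial pyruvate carrier subunits MPC1 and MPC2 were at 33.5 ± 6.48 and 42.9 ± 9.33 CPM.

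In the citric acid cycle all 17 genes with a row were above 10 CPM, with a median percentile of 85.1. FH, fumarase, was the highest per kilobase of the enzymes that work in the mitochondrial matrix, at 70.7 ± 1.89, and its level varied little, with 151, 150, 157 and 148 CPM. DLST, of the oxoglutarate dehydrogenase complex, also varied little, at 141 ± 4.26 CPM. CS, citrate synthase, often taken as a gauge of mitochondrial content, was only at 29.5 ± 4.47 CPM and percentile 50.3. ACLY, which splits citrate in the cytosol for lipid synthesis, was highest of the list per kilobase (117 ± 29.7), with 744, 708, 590.2 and 399.9 CPM in cultures 1 to 4. Of glutamine genes, SLC38A2, an amino acid transporter, was at 809, 720.3, 1224 and 703 CPM, and GLUD1, glutamate dehydrogenase, at 255 ± 44.3 CPM. GLUL, glutamine synthetase, was at 706, 573, 463 and 236 CPM, so the highest was 2.99 times the lowest. GLUD2, at 103 ± 14.5 CPM, is a near copy of GLUD1 without introns, so its counts are uncertain. Of fatty acid oxidation, ECHS1 (50.2 ± 5.97), ACADVL (50.0 ± 8.92) and HADHA (42.4 ± 2.82) were highest per kilobase, and CPT1A, the gate of the pathway, was at 7.55 ± 1.66.

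The respiratory chain was among the most highly expressed groups per kilobase. Of 89 nuclear subunit genes, 79 had a row, 77 were at 1 CPM or more in all 4 cultures, and the median percentile was 93.0. By complex the median percentiles were 87.3 for complex I (34 genes), 66.3 for complex II with its assembly factors (8), 96.6 for complex III (10), 96.5 for complex IV (12) and 92.7 for complex V (17 with a length). Complex II was thus the lowest, and its members included 4 assembly factors, which the other lists did not.

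In complex I, NDUFS5 and NDUFA1, accessory subunits, were highest per kilobase (197 ± 22.4 and 197 ± 37.0), followed by NDUFB7 (115 ± 15.3). Core subunits were at NDUFV1 214 ± 16.0, NDUFS1 209 ± 9.71 and NDUFS3 69.7 ± 5.35 CPM. NDUFA13 was the lowest per kilobase, at 0.488 ± 0.113 (1.32 ± 0.307 CPM). The catalytic core of complex II is SDHA, the flavoprotein, and SDHB, the iron-sulfur subunit, and SDHC and SDHD anchor it in the membrane. SDHA was at 63.8, 67.4, 52.9 and 58.1 CPM, SDHB at 141, 139, 127 and 127 CPM, SDHC at 51.5, 52.5, 48.1 and 45.5 CPM, and SDHD at 136, 135, 153 and 142 CPM. The cultures lay close together in all 4, with CVs of 5.52 to 10.5%. Per kilobase SDHB (54.3 ± 3.00) and SDHD (49.9 ± 3.01) stood above SDHA (7.23 ± 0.762) and SDHC (3.49 ± 0.228), and that order of pairs held with the longest transcript as length. The annotated exons of SDHC add up to 14160 bases, which lowers its value per kilobase. Of the assembly factors, SDHAF3 was at 25.6 ± 2.19, SDHAF1 at 13.9 ± 1.72, SDHAF4 at 8.86 ± 2.26 and SDHAF2 at 4.30 ± 0.390 CPM.

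In complex III, UQCRH (158 ± 35.2 per kilobase) and CYC1, cytochrome c1 (107 ± 7.31), were highest. UQCRH has a near copy, UQCRHL, at 191 ± 42.8 CPM, so both values are uncertain. In complex IV, COX8A was highest (261 ± 23.1 per kilobase), then COX6B1 (159 ± 22.3), COX5B (118 ± 24.6) and COX7B (110 ± 34.7). Only the widely expressed isoforms of complex IV were measured: COX4I1 was at 231, 238, 224 and 220 CPM and COX6A1 at 81.8 ± 8.49 CPM, while COX4I2, COX6A2, COX7A1 and NDUFA4L2 were not analysed here. In the ATP synthase, the catalytic beta subunit ATP5B was at 751, 715, 854 and 704 CPM (325 ± 29.4 per kilobase) and the alpha subunit ATP5A1 at 525 ± 42.6 CPM. ATP5D, the delta subunit, was low at 14.3 ± 3.09 CPM. Many subunits of complexes IV and V shared an order of cultures. Among those at 10 CPM or more, culture 3 was highest for 11 of the 12 complex IV genes and 14 of the 18 complex V genes. Culture 4 was lowest for 9 and 11 of them. Of all 9315 genes at that level, culture 3 was highest for 3332 and culture 4 lowest for 3372. The summed CPM of complex IV was 2003, 1901, 2555 and 1683 in cultures 1 to 4, whereas that of complex II, 447, 445, 436 and 424, had a mean of 438 and an SD of 10.5.

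The 13 mRNAs of mtDNA had a median percentile of 98.0 and took 0.314, 0.279, 0.310 and 0.236% of counts. MT-CO3 was at 899.9, 795, 1236 and 642 CPM, MT-CO1 at 890.2, 755, 967 and 580 CPM and MT-CO2 at 405, 368, 329 and 336 CPM. Complex I mRNAs of mtDNA were lower, with MT-ND4 at 166 ± 39.2, MT-ND1 at 79.3 ± 8.32, MT-ND2 at 79.4 ± 4.38 and MT-ND6, the only mRNA of the light strand, at 42.0 ± 9.47 CPM. MT-CYB was at 117 ± 15.9 and MT-ATP6 at 114 ± 12.6 CPM. Nuclear DNA holds near copies of several of these genes, so the levels are uncertain. The mitochondrial ribosomal RNAs, which the kit used here removes together with those of the cytosol, differed most: MT-RNR2 was at 348, 90.8, 332 and 67.6 CPM and MT-RNR1 at 197, 48.2, 167 and 27.5 CPM. High and low cultures in this case were 1 and 3 against 2 and 4. MT-CO1 and MT-CO3 were also higher in 1 and 3 than in 2 and 4, over a smaller range, and MT-CO2 was not. Whether the removal of ribosomal RNA had a part in this was not tested.

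Electron and metabolite carriers were high as well. CYCS, cytochrome c, was at 521, 535, 554 and 703 CPM (130 ± 18.9 per kilobase). Of the ADP/ATP carriers, SLC25A5 (201 ± 24.7 per kilobase) and SLC25A6 (89.3 ± 10.5) stood above SLC25A4 (3.12 ± 0.514), the form of heart and muscle, in every culture. The channels of the outer membrane ran from VDAC1 (79.6 ± 2.54) over VDAC3 (40.4 ± 2.41) to VDAC2 (22.0 ± 1.41), with no overlap between cultures. UCP2, an uncoupling protein homologue, was near the floor at 1.75 ± 0.450 CPM. Regulators of mitochondrial biogenesis were at middle levels (median percentile 56.8). TFAM, which packages mtDNA, was at 279, 276, 317 and 274 CPM and was the highest per kilobase (51.1 ± 3.62). TFB2M, needed to start mtDNA transcription, was at 47.6, 47.5, 48.5 and 48.9 CPM. The coactivator PPARGC1A was at 14.6, 13.7, 12.7 and 5.50 CPM and PPARGC1B at 15.4 ± 1.62 CPM. Antioxidant genes varied least of all lists in their sum, 2814, 2828, 2802 and 2755 CPM, and PRDX1, a peroxiredoxin, was at 606 ± 8.86 CPM.

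Nucleotide genes were measured because the medium supplies uridine. DHODH, the respiratory-chain-linked step of pyrimidine synthesis, was at 20.2, 19.3, 15.8 and 25.1 CPM, CAD, which starts the pathway, at 60.4, 64.6, 59.7 and 101 CPM, and UMPS, which ends it, at 77.6 ± 9.88 CPM. UCK2, a uridine kinase of salvage, was at 82.5 ± 8.67 CPM and UPP1, uridine phosphorylase, at 98.7 ± 8.04 CPM. For thymidylate, TYMS, the synthase, was at 174, 158, 187 and 110 CPM, and TK2, the mitochondrial thymidine kinase, at 14.5 ± 2.05 CPM. Per kilobase TYMS (63.7 ± 13.6) was above TK1 (8.83 ± 1.29) and TK2 (2.02 ± 0.286) in every culture. RRM1, the large subunit of ribonucleotide reductase, was at 437 ± 23.2 CPM and RRM2, the S phase small subunit, at 81.2, 68.9, 125 and 77.7 CPM. Of the machinery that makes and uses microRNAs, DICER1 was highest per kilobase (36.7 ± 2.39, at 452 ± 29.4 CPM), DROSHA was at 6.47 ± 0.747 per kilobase, and the Argonaute genes AGO2 and AGO3 (4.56 ± 0.859 and 3.08 ± 0.378 per kilobase) stood above AGO1 and AGO4 (1.08 ± 0.172 and 0.767 ± 0.0820).

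**Figure D3:**
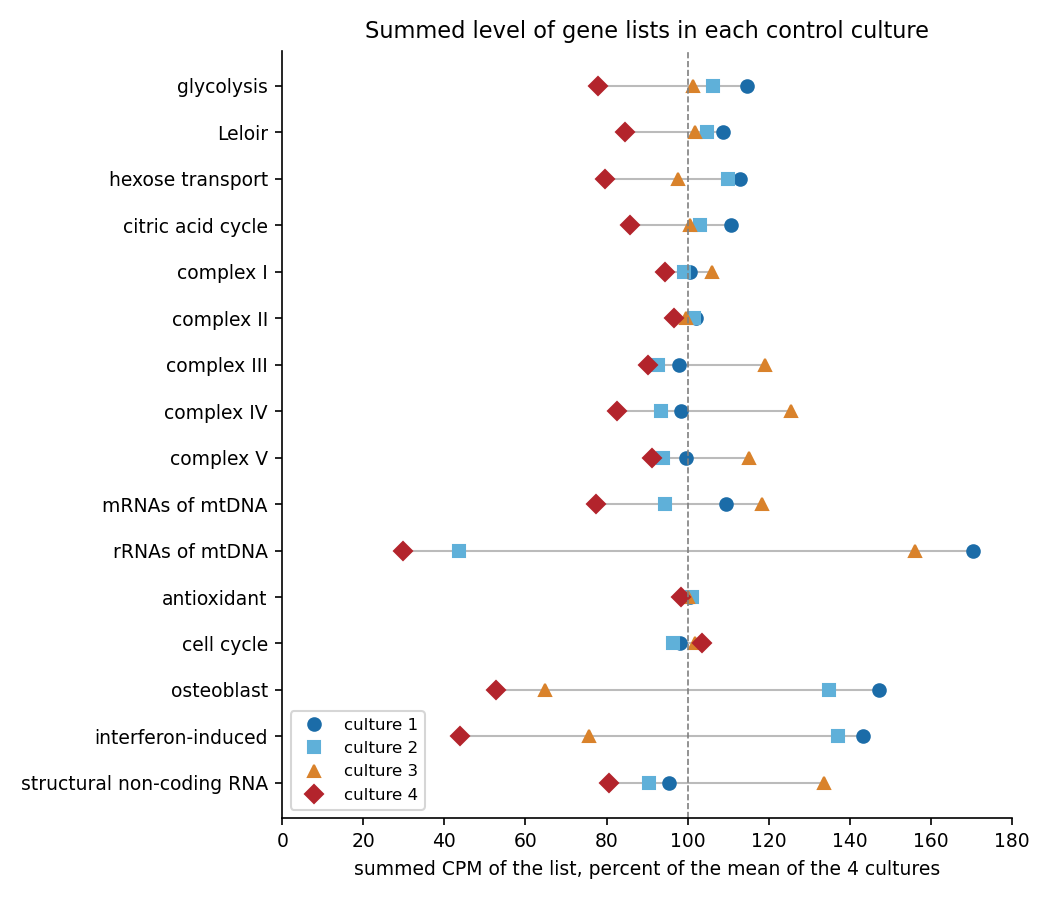
Summed CPM of each gene list in each negative control culture, as a percent of the mean of the 4 cultures (dashed line at 100). Complex II, antioxidant and cell cycle lists lie close to 100 in all cultures, the interferon-induced and osteoblast lists are higher in cultures 1 and 2 than in 3 and 4, and the rRNAs of mtDNA are higher in 1 and 3.

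The spread between the cultures was larger than counting error at every level. For 9315 genes at a mean of 10 CPM or more, the median CV was 14.5%, where counting alone gives 3.50%. It was 22.2% for genes at 1 to 10 CPM (counting 12.5%), 14.9% at 10 to 100 CPM (4.09%), 13.2% at 100 to 1000 CPM (1.78%) and 12.9% at 1000 CPM or more (0.633%). The CV thus hardly moved above 100 CPM, while counting error went on getting smaller. A range of 2-fold or more between cultures was seen for 845 genes, or 9.07%. Culture 4 was the lowest for 477 of these and the highest for 285, and culture 3 the lowest for 224 and the highest for 266. Cultures 1 and 2 differed 2-fold in only 2 genes, and cultures 3 and 4 in 526. The BCV of the 4 cultures given miR-101 was 0.146, and whether that differs from the 0.206 of the controls was not tested. Without culture 4 the BCV of the controls was 0.152 and the number of genes with a 2-fold range was 177, and without culture 3 it was 497.

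**Figure D4:**
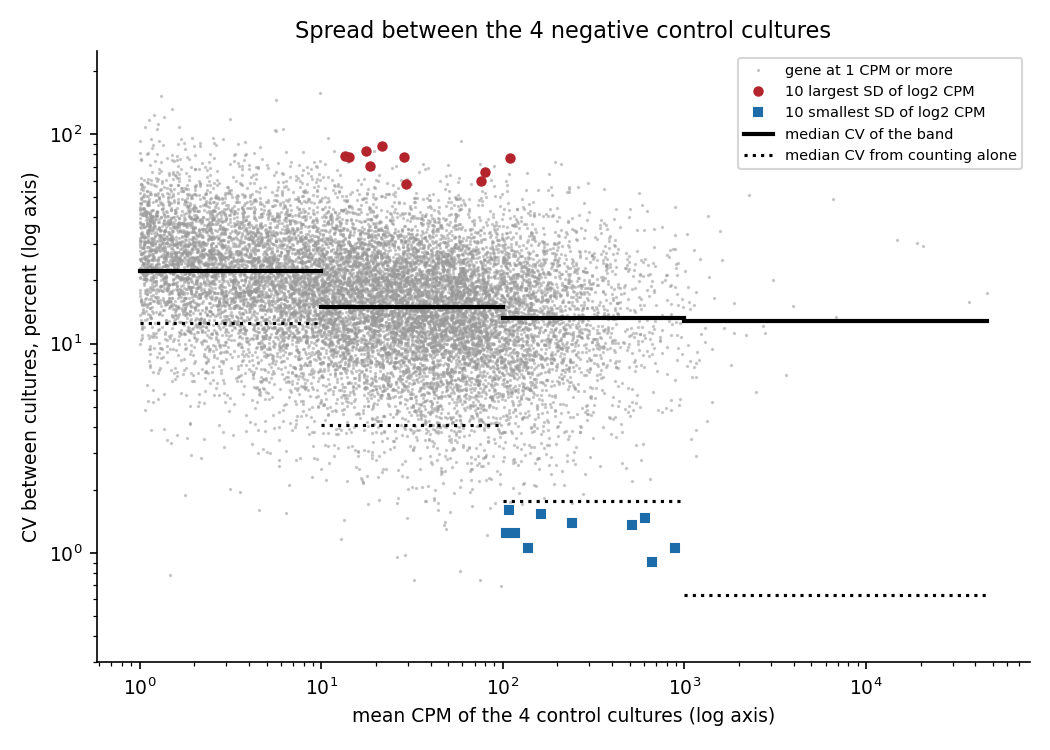
CV between the 4 negative control cultures against mean CPM (both log axes) for genes at 1 CPM or more (grey), with the median of each level band (solid line) and the CV expected from counting alone (dotted line). Median CVs stay between 12.9 and 22.2%, and the 10 genes with the largest SD of log2 CPM (red) and the 10 with the smallest (blue) are marked.

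The 10 most variable genes at 10 CPM or more, by SD of log2 CPM, were C2CD4A, SPP1, RSAD2, GDF15, SLPI, OASL, MT-RNR1, HEY1, RGS16 and SOX2. SPP1 was at 56.1, 35.2, 19.4 and 3.97 CPM. GDF15, a cytokine of the integrated stress response, was at 28.7, 31.8, 4.03 and 5.97 CPM, and HEY1, a target of Notch, at 117, 101, 69.6 and 14.8 CPM. Culture 4 was the lowest in 9 of the 10 and culture 3 in GDF15, and MT-RNR1 was the only 1 in which cultures 1 and 2 were not both above 3 and 4. SOX2, a transcription factor of stem cells, was at 45.8, 36.1, 28.7 and 6.26 CPM, and C2CD4A at 39.7, 35.7, 9.68 and 1.48 CPM.

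The 10 least variable genes at 100 CPM or more were CAPRIN1, RPL19, THOC1, ATE1, NME1, RPL35, RABGGTB, PRDX1, PFKP and INTS10. CAPRIN1, an RNA-binding protein of stress granules, was at 659.6, 669.7, 663 and 673 CPM, a CV of 0.905% where counting alone gives 0.898%. RPL19, of the large ribosomal subunit, was at 900.4, 881, 882 and 883 CPM. In these genes the cultures could hardly be told apart beyond counting error, the isoform PFKP (165, 163, 162 and 159 CPM) among them. They were picked for the smallest spread among 2141 genes at 100 CPM or more, so a spread near counting error follows in part from the choice.

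OASL and RSAD2 belong to the genes that cells switch on in response to interferon or to double-stranded RNA. The list of 21 such genes had 18 with a row, and its median CV was 55.8%, against 14.5% for all genes. The summed CPM was 1977, 1891, 1043 and 606 in cultures 1 to 4. IFIT1, which binds foreign RNA ends, was at 278, 262, 138 and 60.8 CPM, IFIT2 at 393, 371, 188 and 91.5, IFIT3 at 351, 328, 178 and 74.8, and ISG15, a ubiquitin-like modifier, at 168, 162, 83.0 and 66.8 CPM. The RNA sensors DDX58 (RIG-I) and IFIH1 (MDA5) were at 203, 175, 124 and 55.7 CPM and at 82.5, 83.7, 45.2 and 14.4 CPM. In all of these cultures 1 and 2 were high, culture 3 was between and culture 4 was low. The transcription factor STAT2 (34.8, 38.4, 25.4 and 32.0 CPM) varied less and was lowest in culture 3. OAS3 (16.9, 18.4, 12.2 and 15.7 CPM) also did not follow the order of IFIT1. All cultures received mimic and lipid, and whether transfection had a part in these levels was not tested. In such bulk RNA, fewer cells with the mRNA and less mRNA per cell cannot be told apart.

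Of the 13 interferon-induced members at 10 CPM or more, 10 were lowest in culture 4 and the other 3 in culture 3. Of all 9315 genes at that level, 3372 were lowest in culture 4. Most but not all promoters found for the list hold a short element, which is shown here as a description. The letters GAAANNGAAA, as bound by interferon-activated factors, were searched on both strands of the 250 bases before the start site in RefSeq promoters (GRCh38.p14). Of the 18 list members with a row, 13 had a promoter in that set, whatever their level. Of those, 9 held a match (69.2%), against 3.71% of all 27305 symbols with a promoter. Both the list and the element were picked for the interferon response, so this difference says nothing about the cultures. Whether the element has a part in their order was not tested. Further matches were found for each gene shown, and only a single match of each is in capitals. In ISG15 a further match overlaps the one in capitals and runs on in small letters. Matches, in capitals, read along the strand of the gene, so that a match on the other strand appears as TTTCNNTTTC, with 7 bases on either side.
IFIT1: tttccccTTTCGGTTTCcctaggt
IFIT3: ccatcagTTTCACTTTCctttccc
ISG15: gcctcggGAAAGGGAAAccgaaac
IFIH1: gagaatcGAAACAGAAAccaaagt

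The windows lie at chr10:89392513-89392536 (IFIT1, plus strand), chr10:89332471-89332494 (IFIT3, plus strand), chr1:1013377-1013400 (ISG15, plus strand) and chr2:162318689-162318712 (IFIH1, minus strand). A match describes the letters only, and binding was not measured.

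**Figure D5:**
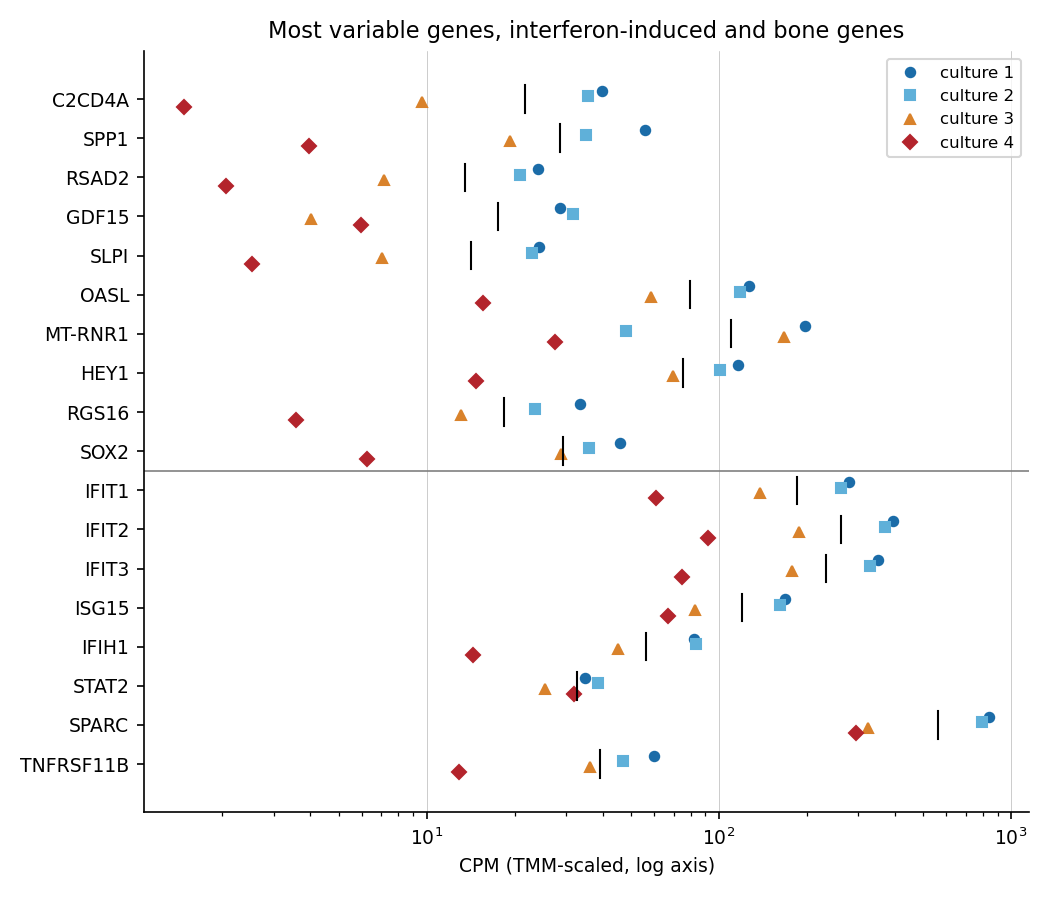
CPM (log axis) in each negative control culture for the 10 most variable genes (above the line) and for selected interferon-induced and bone genes (below it), with a black bar at the mean. Culture 4 is lowest for most genes shown, and STAT2 is lowest in culture 3.

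The controls were also set against the 4 cultures given miR-101. The quasi-likelihood test of edgeR, with Benjamini-Hochberg adjustment, called 1053 of 15905 genes (6.62%) at 0.05, of which 525 (3.30%) were higher and 528 (3.32%) lower with miR-101. A block for the replicate number raised the count to 1676. Of the 209 genes that the naming rule took from the lists and ranks above, 20 (9.57%) were called, 6 higher and 14 lower, and all 20 were also called with the block. LUM is 1 of the 20 but has a row only through its reads in the miR-101 libraries, so it is left aside here. Of the other 19, 4 were called whichever of the 8 libraries was left out (TFB2M, SLC2A3, MT-CO2 and KRT8), and 2 with replicates 1 and 2 summed to 1 sample (TFB2M and SLC2A3). None of the 20 genes highest by CPM was called by edgeR, with 6 at an unadjusted edgeR p under 0.05. DESeq2 called 5 of the 20, limma-voom 1 and the block 4. Over all genes DESeq2 called 1714 of 15982, limma-voom 1059 of 15905 and the block 1676 of 15905. None of 18 interferon-induced, 20 glycolytic and 8 Leloir genes was called by edgeR, DESeq2 or limma-voom, with 0, 3 and 1 at an unadjusted edgeR p under 0.05, and the block called 2 of the interferon-induced genes, MX1 and OAS1. A gene that was not called is not shown to be equal in both groups.

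TFB2M was at 48.1 ± 0.676 CPM in the controls and 18.9 ± 2.59 CPM with miR-101 (log2 fold change -1.35 ± 0.11 SE, edgeR adjusted p = 0.000542), with no overlap between groups. SLC2A3 was at 106 ± 50.1 and 422 ± 94.6 CPM (1.99 ± 0.33, adjusted p = 0.00635), and every miR-101 culture was above every control, although the highest control was 3.38 times the lowest. KRT8 was at 61.4 ± 12.4 and 117 ± 23.2 CPM (0.93 ± 0.18, adjusted p = 0.0114). MT-CO2 was at 360 ± 34.8 and 243 ± 18.3 CPM (-0.56 ± 0.11, adjusted p = 0.0108). ATP5B was at 756 ± 68.4 and 479 ± 78.9 CPM (-0.66 ± 0.13, adjusted p = 0.0145), a call lost in 2 of the 8 leave-outs, with adjusted p up to 0.0585.

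Of the 13 mRNAs of mtDNA, 7 were called lower with miR-101 and none higher, MT-CO1, MT-CO3 and MT-ATP6 among them, with log2 fold changes of -0.76 to -0.47 for those 3. With the block the count was also 7. It was 0 with replicates 1 and 2 summed and 2 to 9 when 1 library was left out, with 2, 2 and 3 without miR-101 cultures 1, 2 and 3 and with 3 and 4 without control cultures 1 and 2. Of the 79 nuclear subunit genes of the chain only ATP5B was called. The background of genes called lower was 3.32%. Of the 20 named genes that were called, the others lower with miR-101 were PDHX, RRM1, CEBPA, NT5E, VDAC1, SLC25A3, FTL and PPARG, and the others higher were MATN3, PDP1 and RPL35. In each of these 11 the call was lost in at least 3 of the 8 leave-outs. In PPARG the values of the control and miR-101 cultures overlapped.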

How the data were processed

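Whole-number read counts per gene symbol, not normalised, were deposited for 8 libraries, and the 4 negative control libraries are described here. Per the labels' protocols, total RNA was extracted with a kit that keeps small RNAs, and libraries were made after removal of ribosomal RNA. StringTie 1.2.4, TopHat2 2.0.14, bcl2fastq 2.18.0.12 and the build hg38 were used, per the submitters' processing notes. The sources used here do not give the counting tool, its annotation, its use of strand or its handling of reads with several matches. Genes with overlapping exons or near copies are therefore uncertain. The lowest total of a row over the 8 libraries was 58 counts, so a gene without a row is given as not analysed here.

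CPM are counts over library size times the TMM factor (edgeR 4.0.16, limma 3.58.1 and R 4.3.3). Of 15982 symbols, 14054 matched a GENCODE 29 (GRCh38) name and 322 an older name through RefSeq synonyms. CPM were divided by the merged exon length in kilobases. The spread of a gene used a mean of 10 CPM or more, and its log2 values used 0.5 CPM as pseudocount. The comparison with miR-101 used filterByExpr, glmQLFit and glmQLFTest with the group as the only term over all 8 libraries and Benjamini-Hochberg adjustment. The fit was tested on simulated data. Alternatives were DESeq2 1.42.0, limma-voom, other size factors, no filter, other CPM minimums, leaving out each library, replicates 1 and 2 summed, and the replicate number as a block. Pairing was checked by correlating the deviations from the group means of the 2 libraries with each number. The correlation was 0.458, 0.667, 0.215 and 0.199 over 9329 genes for numbers 1 to 4. Control libraries 1 and 3 correlated more with another number, so the check did not settle whether same-numbered libraries are pairs. The main fit did not pair them, and the block was run as an alternative.

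The 35 gene lists and the rule for named genes were written with earlier results of these data known. The rule took the 20 highest genes by CPM and by CPM per kilobase, up to 5 of the highest members of each list and up to 6 under 1 CPM, the 10 most and 10 least variable genes, and every line, Leloir, hexose transport, lactate transport and complex II gene. Other list members, and copies beside their parents, were named after their values were seen. Some named genes are not reported here.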

Additional observations from a re-analysis of the deposited data

Results flagged for a closer look

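In groups of 4 values, a culture was looked at again when its gap to the nearest of the others, divided by the whole range, was above Dixon's 95% critical value. This holds by chance in about 1 in 20 groups, and it held for 19 of 242 groups of values, with 10 for culture 3, 8 for culture 4 and 1 for culture 1. Culture 3 stood highest for RPPH1 at 29423 CPM (others 16812 to 18891), LDHB at 1047 CPM (others 865 to 890.1), TFRC at 2009.8 CPM (others 1716 to 1747), CDK1 at 421 CPM (others 285 to 304), TFAM at 317 CPM (others 274 to 279), EMB at 179 CPM (others 105 to 112) and EIF4A1 at 25.4 CPM (others 22.7 to 23.0). Culture 3 stood lowest for BSG, like EMB a chaperone of lactate transporters, at 140.5 CPM (others 177 to 182). It also stood lowest for GALK1 at 19.1 CPM (others 22.4 to 22.9). The same held for the share of counts in protein-coding genes outside the ribosomal protein, histone and mtDNA groups, at 69.7% (others 74.6 to 75.2%).

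Culture 4 stood highest for cyclin D1, CCND1, at 598 CPM (others 358 to 374), for the pyrimidine synthesis genes CAD at 101 CPM (others 59.7 to 64.6) and UMPS at 92.3 CPM (others 71.7 to 73.8), for PDK2 at 2.92 CPM (others 2.19 to 2.31) and for the share of counts in histone genes, at 0.897% (others 0.558 to 0.588%). It stood lowest for RB1 at 92.9 CPM (others 119 to 124), COX8A at 115 CPM (others 137 to 140) and AGO4 at 4.68 CPM (others 5.82 to 5.90). Culture 1 stood highest for RPL19 at 900.4 CPM (others 881 to 883). No explanation of these values was tested.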

How the results depend on the processing

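Depth was 17603054 to 19644320 counts per control library, and counting error alone gives a median CV of 12.5% for genes at 1 to 10 CPM. The share of counts in the 10 most abundant genes was 3.84% when the structural non-coding RNAs were left out of the table, against 16.1% with them, and 15.1 to 16.8% when 1 control library was left out. The median CV was 10.4 to 16.0% and the BCV 0.152 to 0.235 when 1 control library was left out, lowest without culture 4. In alternatives chosen after seeing the data, genes with a 2-fold range numbered 1062 on library totals and 177 to 802 without 1 library (177 without replicate 4, 497 without replicate 3), and mRNAs of mtDNA called lower with miR-101 numbered 0 with replicates 1 and 2 summed and 2 to 9 without 1 library. Of the comparison with miR-101, DESeq2 called 1714 genes, the fit with a replicate block 1676, and the fit with replicates 1 and 2 summed 173. Leaving out 1 library gave 488 to 1419, with 488, 489 and 684 without miR-101 replicates 1, 2 and 3 and 615 and 564 without control replicates 1 and 2. In the check of pairing, libraries 1 and 3 correlated more with another number (0.524 and 0.486) than with their own. The causes were not tested. The number of genes at 1 CPM or more in all 4 cultures stayed within 1.5 times the reported count under every alternative run. With the longest transcript as length, 17 of 32 list percentiles moved by less than their SD between cultures, and the largest shift was 7.11 points.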
